A study of Rattus norvegicus with 4 samples.

Results

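Annexins are calcium-dependent phospholipid-binding proteins, and 9 of their genes are described here in RNA sequencing libraries of rat eye and retina. The genes were chosen by symbol (Anxa1, Anxa2, Anxa3, Anxa4, Anxa5, Anxa6, Anxa7, Anxa8 and Anxa11), and each of the 9 had a value in both libraries, among 14485 gene names in all. The tissue came from Long Evans rats of wild-type genotype, whose age the labels do not state. Each library preparation pooled RNA from 5 rats, and 2 technical replicates are listed for eye and 2 for retina. Each tissue contributed 1 column of values to these results, here called its library. The labels do not state whether that column joins both technical replicates, so its reads may come from 1 or both. With 1 column per tissue, no difference below has replicates behind it or a p-value. The title and tissue label set eye apart from retina, whereas the sample descriptions speak of retina mRNA for all 4 samples, and the tissue labels are followed here.

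An annexin carries a conserved core of repeats that binds acidic phospholipids when calcium rises, and a variable N-terminal tail that binds partner proteins. By this switch annexins move from the cytosol to membranes, where they take part in membrane repair, vesicle traffic, the linking of membranes to actin and the control of inflammation and fibrinolysis. In the eye they are known from surface epithelia, vessels, glia and lens cells.

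Levels are given as RPKM, a read count corrected for the length of the gene model and for sequencing depth. That unit was inferred from the values. A fold is the eye value over the retina value. Intervals are exact 95% intervals for whole reads recovered from the values. These are the smallest reads that give the values. The true reads may be a multiple of them, in which case the intervals are too wide for counting error. This bears most on genes whose smallest length was shorter than their coding sequence, among them Anxa5, Anxa8, S100a10 and S100a4. PCR copies of 1 molecule cannot be told apart without molecular identifiers, so the intervals describe counting error alone, for these 2 libraries and not for the tissues in general. The read totals, also inferred from the values, were 28071917 for eye and 51944762 for retina. By these totals, a gene of equal level had 1.85 times as many reads in retina.

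The sequence upstream of a gene's annotated start is shown for 4 annexins: Anxa1 and Anxa2, which had the highest values in the eye library, Anxa8, which had the largest fold, and Anxa11, which had the smallest fold among the genes with an entry. Entries were found for 8 of the 9 genes. Each run gives the 250 bases before the start in RefSeq's annotation of the rat assembly GRCr8, 5′ to 3′ on the gene's own strand. Capitals mark letters of 3 short motifs, searched on either strand: TATAAA of the TATA box, GGGCGG of the GC box, and CCAAT, which names its own box.
Anxa1, chr1:227303733-227303982, minus strand: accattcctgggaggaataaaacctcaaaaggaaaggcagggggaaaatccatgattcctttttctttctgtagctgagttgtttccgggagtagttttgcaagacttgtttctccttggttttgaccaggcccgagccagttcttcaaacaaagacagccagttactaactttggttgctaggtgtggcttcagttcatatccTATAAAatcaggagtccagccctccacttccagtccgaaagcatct
Anxa2, chr8:78986002-78986251, plus strand: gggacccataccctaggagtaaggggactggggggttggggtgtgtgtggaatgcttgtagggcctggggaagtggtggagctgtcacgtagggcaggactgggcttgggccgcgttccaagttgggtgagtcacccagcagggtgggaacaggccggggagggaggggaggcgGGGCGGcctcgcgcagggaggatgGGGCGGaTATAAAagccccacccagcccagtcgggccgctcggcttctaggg
Anxa8, chr16:9403137-9403386, plus strand: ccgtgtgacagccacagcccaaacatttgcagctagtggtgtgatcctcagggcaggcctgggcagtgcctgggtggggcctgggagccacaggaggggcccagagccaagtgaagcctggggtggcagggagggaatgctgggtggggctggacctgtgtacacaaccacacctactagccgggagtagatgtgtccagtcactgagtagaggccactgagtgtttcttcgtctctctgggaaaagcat
Anxa11, chr16:1419484-1419733, plus strand: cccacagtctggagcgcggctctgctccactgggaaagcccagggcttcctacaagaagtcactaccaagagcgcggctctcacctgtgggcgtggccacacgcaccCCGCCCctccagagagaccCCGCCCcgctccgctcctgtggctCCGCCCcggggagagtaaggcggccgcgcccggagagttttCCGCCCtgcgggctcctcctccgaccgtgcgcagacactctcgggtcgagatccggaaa

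TATAAA stood before 2 of the 8 genes, against 12.9% of 33469 promoters of the same length. These were Anxa1, where its first base lay 46 bases before the start, and Anxa2, where it lay 45 bases before it. GGGCGG stood before 5 of the 8 genes, against 30.5% of all promoters, with 4 copies before Anxa11 and 2 before Anxa2. CCAAT stood before 2 of the 8, Anxa4 and Anxa7, against 34.0%. None of these letters was found in the window of Anxa8. The motifs do not overlap each other in these windows. The GC content of the windows ran from 45.2% for Anxa1 to 69.2% for Anxa11. Over all promoters the median was 51.2% and the upper quartile 60%. Anxa2, Anxa3, Anxa4, Anxa5 and Anxa8 also lay above that quartile, and Anxa7, at 50.8%, lay below the median. The 30.5% for GGGCGG, a motif of G and C only, thus comes from promoters poorer in GC than most of these windows.

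All 9 annexin genes had the higher value in the eye library, and 8 of 9 were at least 2-fold higher there. The members were chosen with earlier results of these data known, so these counts are a description and no test. Of the 13259 genes that reached 1 RPKM in eye or in retina, the genes tested here, 6540 had the higher value in eye. At least 2-fold higher in eye were 17.8% of the tested genes. No annexin was at least 2-fold lower, against 7.95% of the tested genes. At a 4-fold threshold, 5 of the 9 annexins were higher, against 9.07% of tested genes, and 0 were lower, against 0.0905%. Few tested genes were lower at either threshold, so the counts of 0 annexins lower say little. The median log2 fold of the annexins, with 0.1 added to each value, was 2.54, against -0.01 over all tested genes. Summed over the 9 genes, the level was 923 RPKM in eye and 116 RPKM in retina, a ratio of 7.95. Of all summed values, the annexins held 0.177% in eye and 0.0346% in retina. In bulk tissue, fewer cells of a type and less RNA per cell cannot be told apart.

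**Figure D1:**
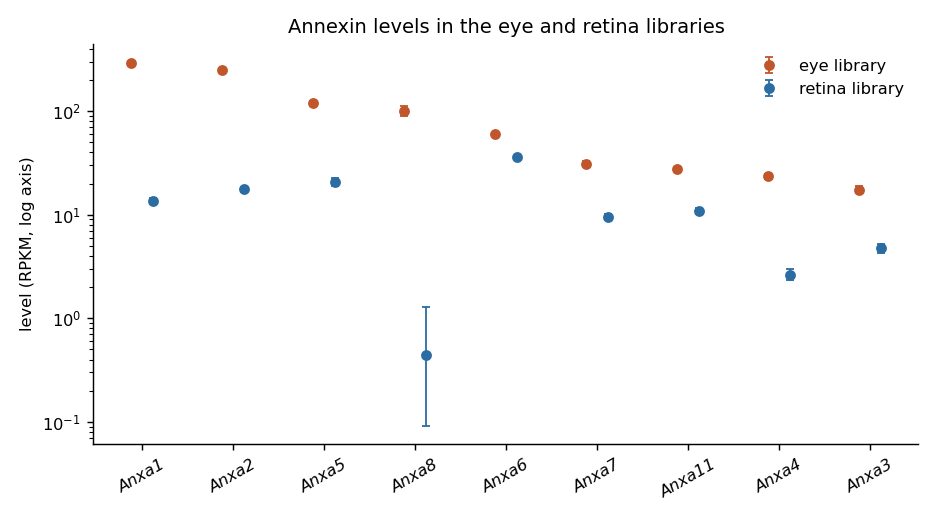
Level of each annexin gene in RPKM (log axis) in both libraries, eye left of retina, with genes ordered by their eye value and bars for exact 95% Poisson intervals from recovered reads. Every gene lies higher in eye, from Anxa1 at 291 RPKM down to Anxa3 at 17.5 RPKM, and the interval is wide only for Anxa8 in retina, at 0.441 RPKM.

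Anxa1 and Anxa2, the best-known members, led the eye library. Anxa1, once called lipocortin, is induced by glucocorticoids and limits inflammation through formyl peptide receptors. It had 291 RPKM in eye, against 13.6 RPKM in retina, a fold of 21.4 (interval 20.1 to 22.9). In the eye library 99.2% of all genes had a lower value than Anxa1, and in retina 63.4% had. Anxa2, which forms a complex with S100a10 and binds the activators of plasminogen at the cell surface, had 251 RPKM in eye, against 17.6 RPKM in retina. Its fold was 14.3 (interval 13.5 to 15.2). In retina Anxa2 lay above Anxa1, whereas in eye it lay below it. The level of Anxa1 over that of Anxa2 was 1.16 in eye (interval 1.13 to 1.19) and 0.775 in retina (interval 0.712 to 0.844).

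Anxa8, known from stratified epithelia, had the largest fold of the family. It had 100.3 RPKM in eye, against 0.441 RPKM in retina, a fold of 228. In retina as few as 3 reads lay behind this, and the fold had an interval from 77.3 to 1109. The true reads may be a multiple of these, because the smallest length that gave whole reads was 131 bases, shorter than an annexin coding sequence. Of all tested genes, 99.6% had a smaller log2 fold than Anxa8. It was the fourth most abundant annexin in the eye library and the least abundant in retina, the only member below 1 RPKM there.

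Anxa4 and Anxa5 followed Anxa1 and Anxa2 in the order of folds. Anxa5, which binds exposed phosphatidylserine and is used as a probe for dying cells, had 120.0 RPKM in eye, against 20.5 RPKM in retina. The fold was 5.85 (interval 5.29 to 6.48). Anxa4, a member known from the membranes of secretory epithelia, had 23.4 RPKM in eye, against 2.63 RPKM in retina. Its fold of 8.91 (interval 7.81 to 10.2) was larger than that of Anxa5, although its level in eye was much lower. Anxa3, found in neutrophils and in several epithelia, had 17.5 RPKM in eye, against 4.73 RPKM in retina, a fold of 3.70 (interval 3.25 to 4.21). It was the least abundant annexin of the eye library.

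Anxa7 and Anxa11, which share a long N-terminal tail that binds calcium-sensing partners such as Pdcd6, differed less between the libraries. Anxa7 (synexin) had 31.2 RPKM in eye, against 9.52 RPKM in retina, a fold of 3.28 (interval 3.02 to 3.56). Anxa11, which links RNA granules to lysosomes in neurons, had 27.9 RPKM in eye, against 10.9 RPKM in retina, a fold of 2.55 (interval 2.37 to 2.74). Both intervals lay above 2. Their order changed between the libraries. In eye Anxa7 lay above Anxa11 by 1.12-fold (interval 1.05 to 1.20), and in retina Anxa11 lay above Anxa7 by 1.15-fold (interval 1.05 to 1.25).

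Anxa6 was the exception. This member has a duplicated core and takes part in the traffic of cholesterol and endosomes. It had 60.1 RPKM in eye, against 36.2 RPKM in retina, a fold of 1.66 (interval 1.59 to 1.73) that was not called. It was the most abundant annexin of the retina library, above 86.5% of all genes there, and the fifth in eye. Its level over that of Anxa5 was 0.501 in eye (interval 0.473 to 0.53) and 1.76 in retina (interval 1.61 to 1.94).

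**Figure D2:**
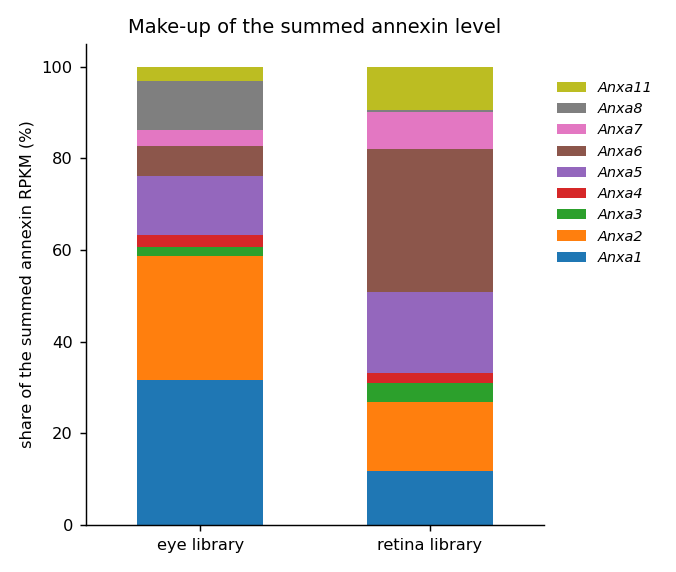
Share of the summed annexin RPKM (percent, bars from 0 to 100) taken by each of the 9 genes in eye (left) and in retina (right). Anxa1 and Anxa2 together hold 58.8% in eye and 26.8% in retina, and Anxa6 holds 6.51% in eye and 31.2% in retina.

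The make-up of the family differed between the libraries. Anxa1 and Anxa2 together took 58.8% of the summed annexin level in eye and 26.8% in retina. Anxa6 took 6.51% in eye and 31.2% in retina, and Anxa5 13.0% in eye and 17.7% in retina. Anxa8 took 10.9% in eye and 0.38% in retina. Without Anxa1 and Anxa2 the sum of the other 7 genes was 380 RPKM in eye and 84.9 RPKM in retina, a ratio of 4.48. Ordered by level, the eye library ran Anxa1, Anxa2, Anxa5, Anxa8, Anxa6, Anxa7, Anxa11, Anxa4 and Anxa3. The retina library ran Anxa6, Anxa5, Anxa2, Anxa1, Anxa11, Anxa7, Anxa3, Anxa4 and Anxa8. Every neighbouring pair in these orders differed beyond counting error, the closest being Anxa7 and Anxa11 in eye. With 1 library per tissue, no spread between samples could be set against these orders.

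**Figure D3:**
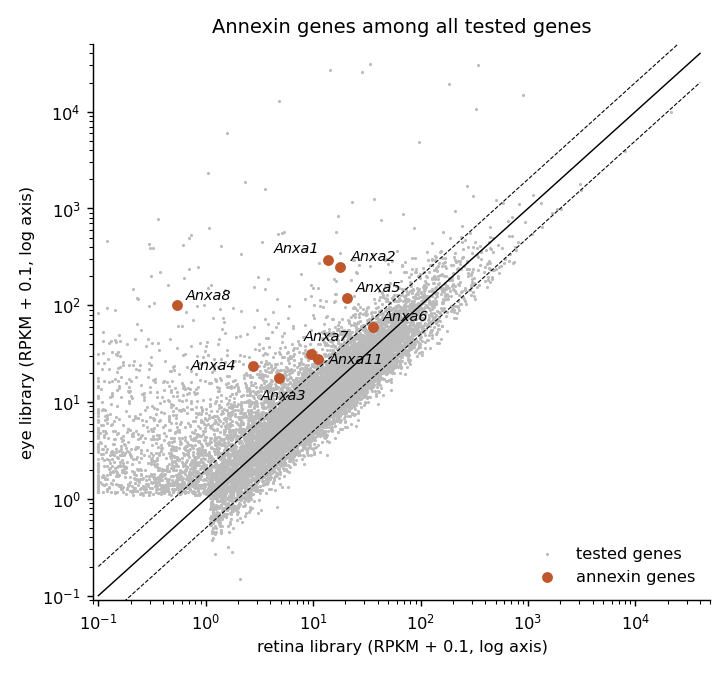
Values of the 13259 tested genes (grey) and the 9 annexin genes (labelled) in the retina library (horizontal) and the eye library (vertical), as RPKM plus 0.1 on log axes. The solid line marks equal values and the dashed lines a 2-fold difference. Of the annexins, Anxa6 alone lies between the dashed lines, and Anxa8 lies farthest above them.

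Of 5 other scalings, 3 left 8 annexins at least 2-fold higher in eye, against 17.4% to 18.0% of tested genes. Among them were scaling by the median ratio and by the trimmed mean log ratio. The folds moved with equal sums that kept most or all lens genes in. With both libraries scaled to equal summed values, every log2 ratio moved by -0.64 before 0.1 was added, and 7 of the 9 annexins were at least 2-fold higher in eye and 0 lower, against 10.6% of tested genes higher and 32.8% lower. Anxa11, with a log2 fold of 0.70, then missed the threshold, and Anxa6 stood at 0.09. The median of all tested genes moved as well, to -0.67. Relative to that median, the annexin median was 2.57, against 2.56 with the values as deposited. A shift shared by all genes nearly cancels in this difference, so these values had to lie close.

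**Figure D4:**
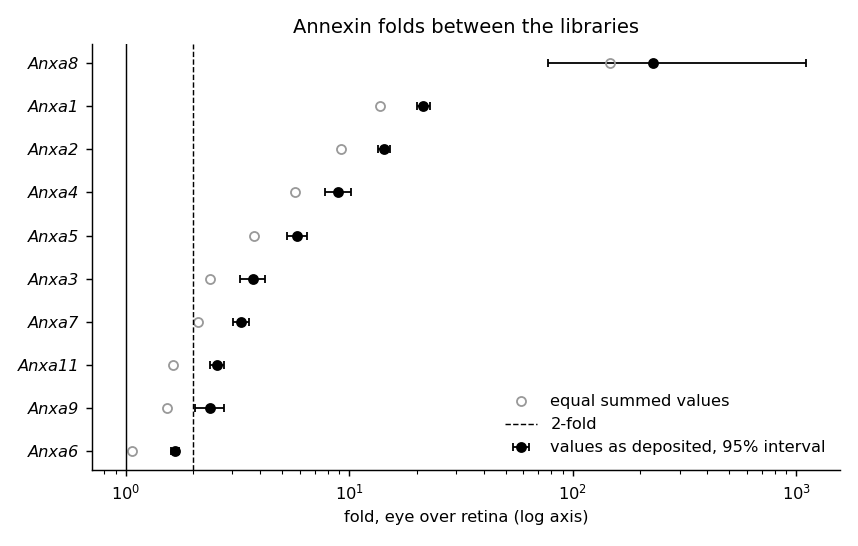
Fold of eye over retina (log axis) for the 9 annexin genes and Anxa9, with exact 95% intervals (filled) and the same fold after scaling to equal summed values (open). The dashed line marks 2-fold. Folds as deposited run from 1.66 for Anxa6 to 228 for Anxa8, and all open points stay above 1.

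Of the other family genes, Anxa9, an atypical annexin whose core lacks the usual calcium sites, had 11.2 RPKM in eye, against 4.71 RPKM in retina. Its fold was 2.37 (interval 2.05 to 2.75), and with equal summed values it was not called. Anxa13, known from the epithelium of intestine and kidney, was below the minimum, at 0.0936 RPKM in eye and 0.0126 RPKM in retina. These values stood for as few as 4 reads in eye and 1 in retina, and the ratio of 7.40 had an interval from 0.732 to 365. The third, Anxa10, was not analysed here.

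Partner genes were taken from a list of 28 symbols, of which 22 had values. The list was chosen with earlier results of these data known, so its counts are a description and no test. Of these 22, 13 were at least 2-fold higher in eye, against the same 17.8% of tested genes, 9 were not called and 0 were lower, against 7.95%. Their median log2 fold was 1.60, against -0.01 over all tested genes. Members of the list without a value were Sri, Plaur, Plg and the formyl peptide receptor genes Fpr1, Fpr2 and Fpr3, so the receptors of Anxa1 are not analysed here.

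All 4 S100 partners, small calcium-binding proteins that dock on annexin tails, were at least 2-fold higher in eye, against 17.8% of tested genes. S100a10, which joins Anxa2 in a tetramer, had 254 RPKM in eye, against 34.1 RPKM in retina, a fold of 7.45 (interval 6.61 to 8.42). The level of Anxa2 over that of S100a10 was 0.99 in eye (interval 0.935 to 1.05) and 0.515 in retina (interval 0.456 to 0.583). In eye the interval included 1, whereas in retina S100a10 was the more abundant. S100a11, a partner of Anxa1, had 209 RPKM in eye, against 7.58 RPKM in retina, a fold of 27.6 (interval 22.9 to 33.6). Anxa1 over S100a11 was 1.39 in eye (interval 1.32 to 1.47) and 1.79 in retina (interval 1.48 to 2.19).

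S100a6 (calcyclin), which binds Anxa11, had the largest fold of the list. It had 447 RPKM in eye, against 3.21 RPKM in retina, a fold of 139 (interval 109 to 180). The level of Anxa11 over that of S100a6 was 0.0623 in eye (interval 0.059 to 0.0658) and 3.41 in retina (interval 2.66 to 4.42). S100a6 was the more abundant in eye, and Anxa11 in retina. S100a4, a partner of Anxa2, had 571 RPKM in eye, against 16.2 RPKM in retina, a fold of 35.3.

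Pdcd6, a calcium sensor that binds Anxa7 and Anxa11, had 27.9 RPKM in eye and 14.6 RPKM in retina. Its fold of 1.91 (interval 1.76 to 2.08) was not called, although the interval reached above 2. Anxa11 over Pdcd6 was 0.997 in eye (interval 0.926 to 1.07) and 0.749 in retina (interval 0.691 to 0.811). Anxa7 over Pdcd6 was 1.12 in eye and 0.652 in retina. Pla2g4a, the cytosolic phospholipase that Anxa1 inhibits, had 4.24 RPKM in eye, against 1.55 RPKM in retina, a fold of 2.74 (interval 2.31 to 3.25).

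Both measured genes of the plasminogen system were at least 2-fold higher in eye, against 17.8% of tested genes. Plat, the tissue plasminogen activator that binds the Anxa2 complex, had 32.2 RPKM in eye, against 15.0 RPKM in retina, a fold of 2.14 (interval 2.02 to 2.28). Plau (urokinase) had 3.79 RPKM in eye, against 0.159 RPKM in retina, a fold of 23.8 (interval 11.6 to 56.7).

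Of 9 genes of membrane repair, 5 were higher in eye and 4 were not called, against 17.8% of tested genes higher. Capn1 and Capn2, calcium-activated proteases, had folds of 8.68 and 4.37. Ahnak, a scaffold of the Anxa2 complex, had a fold of 7.77, the ferlin gene Myof 5.75 and Trim72, a repair protein of muscle, 9.68. Dysf (dysferlin), at 3.70 RPKM in eye and 1.94 RPKM in retina, had a fold of 1.90 and was not called. The genes of the membrane-scission machinery were likewise not called: Pdcd6ip had a fold of 1.94, Vps4b 1.87 and Chmp4b 1.54. The intervals of Dysf, Pdcd6ip and Vps4b reached above 2.

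Of 5 signalling and membrane partners, 1 was higher in eye and 4 were not called, a share near the 17.8% of tested genes that were higher. Egfr, whose kinase phosphorylates Anxa1, had 3.52 RPKM in eye, against 0.931 RPKM in retina, and was called at a fold of 3.78. Cav1 (caveolin) had a fold of 1.24 and Rasa1, a Ras regulator that binds Anxa6, 1.42, and neither was called. Src, which phosphorylates Anxa2, had 16.6 RPKM in eye and 25.6 RPKM in retina. Prkca, a protein kinase that Anxa6 binds, had 24.9 RPKM in eye and 36.6 RPKM in retina. Neither was called with the values as deposited, and with equal summed values both were at least 2-fold lower in eye, a call that 32.8% of tested genes then had. Under that scaling Plat and Pla2g4a were no longer called, and the small differences of Chmp4b, Rasa1 and Cav1 changed sign.

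**Figure D5:**
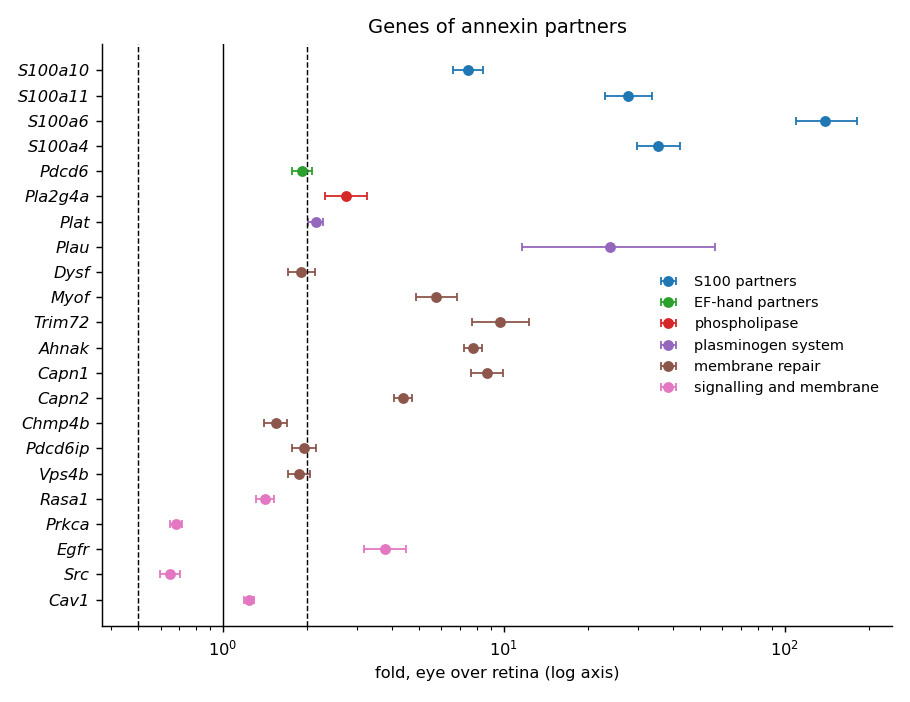
Fold of eye over retina (log axis) for the 22 partner genes with values, coloured by role, with exact 95% intervals. Dashed lines mark 2-fold in either direction and the solid line equal values. The S100 genes lie from 7.45 to 139, and Src and Prkca alone lie below 1.

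The genes closest to Anxa1 in both libraries, by distance on log2 of the value plus 0.1, were Gsn (gelsolin, an actin-severing protein), Anxa2 and Cd24, a surface glycoprotein. The distance was taken over 2 libraries only. Gsn had 275 RPKM in eye, against 11.3 RPKM in retina, at a distance of 0.28, and Cd24 had 347 RPKM in eye, against 17.8 RPKM in retina, at 0.46. Those closest to Anxa8 were LOC363060, Sdc1 (syndecan) and H19, a noncoding RNA. Sdc1 had 99.0 RPKM in eye, against 0.723 RPKM in retina, at a distance of 0.61, and H19 had 106 RPKM in eye, against 0.232 RPKM in retina, at 0.71.

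Markers of several cell types moved with the annexins between the libraries. The counts stand against 17.8% of tested genes higher in eye and 7.95% lower. The marker lists too were chosen with earlier results of these data known. All 5 measured markers of the corneal and conjunctival surface were higher in eye, summing to 4703 RPKM in eye and 4.16 RPKM in retina. All 6 stroma markers were higher, with sums of 2176 RPKM in eye and 8.42 RPKM in retina. All 6 of skeletal muscle were higher, with 2561 RPKM in eye and 7.75 RPKM in retina. All 4 measured of lens summed to 4749 RPKM in eye and 62.9 RPKM in retina, and all 6 of melanin pigment cells to 988 RPKM in eye and 87.0 RPKM in retina, each marker being higher in eye. Of 5 tested markers of retinal pigment epithelium, 5 were higher. Best1 was below the minimum and had the lower value in eye, 0.355 RPKM against 0.470 RPKM in retina. The 6 measured summed to 1288 RPKM in eye and 306 RPKM in retina, of which Ttr held 932 RPKM and 211 RPKM. Of 5 endothelial markers, 4 were higher, and the 5 summed to 77.0 RPKM in eye and 24.7 RPKM in retina. Of 4 tested immune markers 3 were higher, and all 6 summed to 125 RPKM in eye and 21.8 RPKM in retina. No marker was listed at 0 in either library. Rod markers, which define retina, were lower in eye in 3 of 6 cases and higher in none, summing to 7819 RPKM in eye and 15063 RPKM in retina. The sum in eye was 0.519 of that in retina, so the eye library held retina RNA as well. The folds in this report therefore do not set 2 separate tissues against each other. None of 5 Mueller glia markers was called, with sums of 646 RPKM in eye and 801 RPKM in retina. With equal summed values all 6 rod markers and 2 of 5 Mueller glia markers were lower in eye, against 32.8% of tested genes, which the Mueller glia share was near. The part of these cell types in the annexin folds was not tested.

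RefSeq's table of GRCr8 lists pseudogenes named after Anxa2 and Anxa7. The labels do not say how reads shared with such copies were counted or whether strand was used, so the values of both genes are uncertain to that extent.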

How the data were processed

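Gene expression was measured by RNA sequencing of pooled RNA from rat eye and retina. The submitters' processing notes name the tools GSNAP and HTSeq and the rat genome build rn4, without versions, and no label gives their settings or the gene annotation. The deposited values are taken as RPKM, a unit inferred from the values. Each file held 14533 rows, 7 of them with ND, and 41 rows repeated a gene name, of which the row with the most decimals was kept. Samples were grouped by title.

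Whole reads were recovered with Python 3.11.15. Short genes, with length taken as their RefSeq span, gave each library's total, and each gene's smallest length with whole reads in both libraries was then searched, within the rounding of the printed decimals. This worked for 13976 of 13980 genes. The steps were tested on simulated data. There part of the genes had their RefSeq span as length by design, so the test could not check that assumption here. Folds were log2((eye + 0.1) / (retina + 0.1)) over genes that reached 1 RPKM in eye or retina, called at 2-fold. Named folds are ratios without the added 0.1. Intervals are Clopper-Pearson for ratios and Poisson for levels (scipy 1.17.1).

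The genes named were all 9 annexins, 3 further family genes, the partner list, and the 3 genes nearest to the annexin with the highest eye value and to that with the largest fold. The members and lists were chosen with earlier results of these data known, and level ratios between genes were chosen after their values were seen. Alternatives varied the added value, minimum, threshold and scaling.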

Additional observations from a re-analysis of the deposited data

How the results depend on the processing

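Across 11 alternatives, all 9 annexins kept the higher value in eye, and Anxa1, Anxa2, Anxa4, Anxa5 and Anxa8 stayed past the threshold in each. The changes of minimum and threshold left every annexin log2 fold as it was, so those alternatives could not have reversed one. At a 4-fold threshold 5 annexins were called higher (Anxa3, Anxa7 and Anxa11 dropped out), and 1203 genes in all were higher and 12 lower. With equal summed values, the annexin median log2 fold was 1.90, 2 partner genes were lower, and 1363 genes were higher and 4232 lower. With equal sums without lens markers these were 1.92, 2, 1382 and 4151. With crystallins left out as well, an alternative chosen after the data were seen, the log2 ratio moved by -0.03. There 8 annexins were higher, against 17.4% of tested genes. Scaling by the trimmed mean log ratio gave an annexin median of 2.54 and by the median ratio 2.55, each with 8 annexins higher. Of tested genes, 17.8% and 18.0% were then higher. With 1 added to each value 655 of 13259 tested genes were lower, and with a minimum of 5, 1471 of 10018 were higher. As reported, 2366 were higher and 1054 lower. These shifts follow from how the alternatives are built. No paired analysis was possible because each tissue had 1 column of values. Precision is lowest for Anxa8 and Anxa13 in retina, where the recovered reads, a lower limit, were few.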
